A study of Saccharomyces cerevisiae with 12 samples.

Results

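The comparison set 2 arrays of wild type yeast bubbled with nitrogen for 3 hours against 2 arrays of wild type yeast kept at low oxygen overnight, over all 5974 open reading frame probes of a table that holds 12 arrays. The yeast is Saccharomyces cerevisiae, strain BY4741 from the EUROSCARF collection, a MATa haploid laboratory strain that carries deletions at HIS3, LEU2, MET17 (also called MET15) and URA3. All cultures grew at 30 °C in synthetic complete medium containing 2% glucose. In the shift group, cultures reached an OD600 of 0.8 in air before nitrogen was passed through them. In the hypoxia group, cultures spent the night in anaerobic jars with less than 1% oxygen, and their medium was supplemented with ergosterol at 20 mg/l and Tween 80 at 0.5%, a sterol and a source of unsaturated fatty acid that cells cannot make without oxygen. Duration, the way oxygen was removed, the lipid supplements and the growth history all differ between the groups, and their effects cannot be told apart. The 2 wild type arrays from air are given beside some results, and so are the shift and hypoxia arrays labelled ixr1 null, from a strain described as lacking the regulator Ixr1. The probe of IXR1 read 3.60 and 3.01 on the shift arrays labelled ixr1 null and 0.608 and 1.13 on the hypoxia arrays labelled ixr1 null, so it does not show the deletion, and no source used here says whether it lies in the deleted stretch. Arrays are lettered A and B, and the labels do not say whether these are separate cultures or repeat hybridisations, so p-values measure the spread between arrays, which may be technical.

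Yeast needs molecular oxygen to make heme, sterols and unsaturated fatty acids, and it reads oxygen largely through heme. When heme is low, the repressor Rox1 disappears and hypoxic genes such as ANB1, AAC3 and HEM13 are released. Long anaerobic growth also replaces aerobic wall mannoproteins, such as those of CWP2, with the anaerobic DAN, TIR and PAU proteins, and lets sterols in from outside. ATP then comes from glycolysis and fermentation, and sugar uptake runs through hexose transporters of differing affinity.

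Each value is a radioactive signal (an intensity) on the linear scale of the authors, with a mean near 1 on each array and with exact zeros, which are treated as not detected. Zeros numbered 834 and 69 on shift arrays A and B, against 403 and 257 on hypoxia arrays A and B. The shift arrays were less alike than the hypoxia arrays, with rank correlations across probes of 0.692 and 0.917, and 1033 of the tested probes differed over 4-fold between the shift arrays against 258 between the hypoxia arrays. The tenth percentile of the values above 0 was 0.0475 and 0.0636 in the shift and 0.0538 and 0.0626 in hypoxia, and a value under it is called dim here. Dim values are not marked at every gene below. Probes of deleted genes still gave a signal, although MET17 was listed at 0 on an array of each group and was not tested. URA3 read 0.221 and 0.245 in the shift and 0.117 and 0.0762 in hypoxia, and LEU2 read 0.111 and 0.298 in the shift and was listed at 0 in hypoxia. HIS3, which this strain lacks only in part, read 1.26 and 1.44 in the shift and 0.523 and 0.561 in hypoxia (log2 difference 1.58, adjusted p = 0.126). Readings of the size of those of URA3 and LEU2 therefore occur without the gene. Arrays have no counts, so their number limits the precision.

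Of the 5974 probes, 4893 had a value above 0 on all 4 arrays and were tested, and 383 passed an adjusted p of 0.05, which is 7.83% of those tested. The shift was higher at 227 probes, or 4.64%, and lower at 156, or 3.19%. The median log2 difference, shift minus hypoxia, was 0.04 over all tested probes, and the smallest fold that passed was 3.10. The shift and hypoxia values did not overlap at any of the 383 probes, which is no evidence beyond the calls themselves. Of the 227 higher probes, 114 had a dim hypoxia value, and of the 156 lower probes, 38 had a dim shift value, so that many folds rest on a reading near the bottom of an array. The count depends on single arrays and on which arrays supply the spread. It was 154 without hypoxia array A, 148 without hypoxia array B and 105 from the 4 arrays alone, and without shift array A or B the lower probes numbered 303 and 284 and outnumbered the higher ones. Single genes were followed through the alternative settings at 109 called genes, which leave out those named only under the closing heading of other observations. Of these 109, none changed sign under any alternative setting. Without hypoxia array A or hypoxia array B 58 lost their call, and 38 passed in every alternative that retested them.

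**Figure D1:**
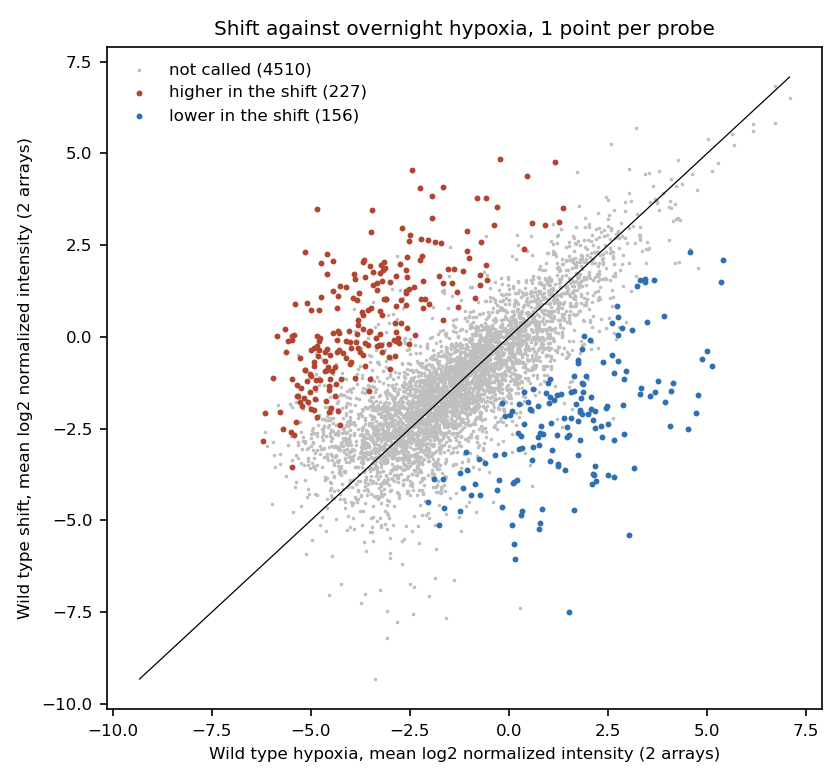
Mean log2 normalized intensity of each tested probe on the 2 wild type shift arrays (vertical axis) against the 2 wild type hypoxia arrays (horizontal axis), with the line of equality. The 227 higher probes (red) and the 156 lower probes (blue) lie off the diagonal, and the red points lie mostly at low hypoxia values.

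At most called probes the air arrays lay closer to the shift than to hypoxia. Among the 367 called probes with a value on both air arrays, the air mean was closer to the shift mean at 337, or 91.8%, against 51.0% of the 4584 tested probes with such values. The share was 93.8% for the higher and 88.7% for the lower probes.

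The arrays labelled ixr1 null share no array with these 4 and showed most of the same directions. With values on all 4 of the shift and hypoxia arrays labelled ixr1 null, 160 of 161 higher probes and 53 of 54 lower probes had the same sign there, against 72.1% of the 2203 tested probes with such values. The median log2 difference of those higher probes was 3.94 in the wild type and 4.0 on the arrays labelled ixr1 null, and that of the lower probes was -3.09 in the wild type and -2.55 on the arrays labelled ixr1 null. The remaining called probes had a 0 among those arrays, as NFG1 and MTQ2 had on shift array A labelled ixr1 null. Without that array, 192 of 196 higher and 99 of 101 lower probes had the same sign, against 66.8% of 3903 tested probes. The arrays of the same letter are not fully separate across genotypes, since shift arrays A and B deviated from their group means together with the arrays A and B labelled ixr1 null, with a correlation of 0.65. The difference between genotypes itself was called at no probe of 2203 (0%), although 153 had an unadjusted p under 0.05, and a fit that lets the spread follow the level called 4. The smallest p belonged to AIR2, for an RNA-binding subunit of the nuclear TRAMP surveillance complex, with a log2 difference of 4.28 in the wild type and 9.20 on the arrays labelled ixr1 null, a gap of -4.91 ± 0.68 (adjusted p = 0.0919). Its hypoxia values on the arrays labelled ixr1 null were 0.0395 and 0.0322, under the tenth percentiles of 0.0734 and 0.0972, so the size of that gap rests on dim readings. VMA8, for a subunit of the vacuolar proton pump, had -2.22 and 2.35 (adjusted p = 0.125), and YRB1, for a Ran-binding protein of nuclear transport, had 2.90 and 6.57 (adjusted p = 0.153), with 0.0803 and a dim 0.0801 on the hypoxia arrays labelled ixr1 null.

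Among called probes with no dim value and none near the brightest of its array, those that rose most came from several processes. Their low side may still not be measured. Hypoxia values of EGD1 and HXT1, for example, were of the size read in hypoxia at URA3, which this strain lacks. EGD1, for a subunit of the complex that binds nascent polypeptides at the ribosome, read 13.8 and 9.66 in the shift against 0.0757 and 0.121 in hypoxia, a log2 difference of 6.93 ± 0.58 (SE, n = 2 arrays a group, as for every SE below; adjusted p = 0.000908). MET14, for the kinase that activates sulfate, read 13.5 and 14.1 against 0.336 and 0.251. HXT1, for a low-affinity glucose transporter, read 4.22 and 4.68 against 0.0844 and 0.0862. In each of these genes the replicates lay close together and the groups were far apart. LDB18, for a dynactin subunit, read 16.8 and 16.2 in the shift against 0.421 and 0.289 in hypoxia (log2 difference 5.76, adjusted p = 0.00119). The rest of the 12 highest were RPL25, GRE1, TIP1, ILV5 and SAM1, described with their pathways, and 3 probes without a gene symbol, YKR040C, YOR338W and YNL276C, with log2 differences of 6.99, 5.43 and 5.28. GRE1 and YKR040C differed strongly between the shift arrays: YKR040C read 13.0 and 50.7, and the same arrays labelled ixr1 null read 12.8 and 52.2. YOR338W was lost without either hypoxia array.

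Among called probes with no dim value, those that fell most were bright in hypoxia and far lower in the shift. RFA1, described below, fell further (log2 difference -8.41), but its shift values were dim. NFG1, for a negative regulator of filamentous growth, read 0.165 and 0.257 in the shift against 31.8 and 21.0 in hypoxia, and 0.181 and 0.204 in air (log2 difference -6.80 ± 0.58, adjusted p = 0.00108). MTQ2, for a methyltransferase that modifies the translation release factor, read 0.322 and 0.276 against 28.3 and 32.0 (-6.37 ± 0.52, adjusted p = 0.00107). CSE4, for the histone H3 variant of centromeres, read 0.0507 and 0.0730 against 3.39 and 5.36. At these probes both hypoxia readings lay far above the shift and air readings. UTP11, for a factor of small ribosomal subunit assembly, read 0.230 and 0.429 in the shift against 12.3 and 19.7 in hypoxia. FIG1, for a membrane protein used in mating, read 0.153 and 0.126 against 5.86 and 5.88. CAB1, for pantothenate kinase at the start of coenzyme A synthesis, read 0.167 and 2.88 against 37.4 and 28.2, so its shift arrays lay far apart. CAB1, EMA19 and MUD1 were lost without either hypoxia array and CSE4 without hypoxia array B. The groups did not overlap in any of them, which the rule for naming them required. The others of the 12 lowest were YDL026W, YDR112W, EMA19, MUD1, MLO50 and ILM1, whose log2 differences ran from -6.49 to -5.46.

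Some probes were detected in only 1 group, and these have no fold. Values above 0 on both shift arrays and 0 on both hypoxia arrays were found at 45 probes. MAL11, for a maltose permease, read 1.10 and 0.178 in the shift, and ECM11, a meiotic gene, read 0.165 and 0.210. The reverse was found at 11 probes, led by NUP60, for a nuclear pore protein, which was listed at 0 in the shift and read 3.32 and 3.09 in hypoxia. THI13, of thiamine synthesis, was listed at 0 in the shift and read 0.269 and 0.316 in hypoxia. Apart from MAL11 and NUP60 these values are low, and LEU2, which this strain lacks, is among the 45.

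Genes of sulfur assimilation and methionine metabolism were higher after the shift. Of 33 probes of the pathway, 30 were tested, 9 rose and 1 fell, which is 33.3% against 7.83% of all probes, with a median log2 difference of 1.31 against 0.04. BY4741 lacks MET17, which joins sulfide to a carbon chain, so it takes its methionine from the medium while the earlier steps of the pathway remain encoded.

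Sulfate is activated by the products of MET3 and MET14 and reduced by those of MET16, MET5 and MET10. MET14 had a log2 difference of 5.77 ± 0.53 (adjusted p = 0.00107), a 54.6-fold higher level in the shift. MET16 read 4.21 and 4.15 in the shift against 0.00355 and 0.0848 in hypoxia, where array A was dim, and its difference was 6.76 ± 0.72 (adjusted p = 0.00161). MET5 and MET10, for the subunits of sulfite reductase, rose less. MET5 read 4.65 and 3.56 against 0.573 and 0.904, and MET10 read 11.3 and 7.47 against 1.46 and 1.61, which are 5.83-fold and 5.77-fold higher. MET3 read 1.67 and 3.56 against 0.551 and 0.581 and did not pass (log2 difference 2.30, adjusted p = 0.0549), although its groups did not overlap. Every step from sulfate to sulfide thus had a higher reading in the shift, and 4 of these 5 probes passed. The probe of MET14 passed in every alternative. That of MET16 passed in every alternative that retested it, but with dim probes left out it was not retested. MET5 and MET10 were not called without shift array A or without either hypoxia array.

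Downstream, CYS3, whose enzyme makes cysteine from cystathionine, read 10.2 and 7.82 in the shift against 1.88 and 1.90 in hypoxia (log2 difference 2.13, adjusted p = 0.0210). SAM1, for one of a pair of S-adenosylmethionine synthetases, read 2.35 and 4.86 against 0.138 and 0.0757 (5.22, adjusted p = 0.00208). Genes for recycling and import of sulfur compounds moved in both directions. MHT1, for a methyltransferase that makes methionine from S-methylmethionine, read 2.84 and 2.18 against 0.0424 and 0.0699, and SAM3, for a S-adenosylmethionine permease, read 0.363 and 2.02 against 0.00680 and 0.0209. MUP3, for a low-affinity methionine permease, fell: it read 0.389 and 0.113 in the shift against 2.86 and 3.63 in hypoxia (log2 difference -4.03, adjusted p = 0.0165). MUP1, for the high-affinity permease, read 6.28 and 3.26 against 1.25 and 1.16 and did not pass (adjusted p = 0.0699). MET30, for the ubiquitin ligase subunit that restrains the activator Met4, rose as well, with 5.0 and 1.57 against 0.0800 and 0.217 (4.49, adjusted p = 0.0112). Over the whole pathway 5 probes rose and none fell without hypoxia array A, and likewise without hypoxia array B, and 5 rose and 1 fell without shift array A, with medians of 0.99, 1.66 and 1.03. Without either hypoxia array 16.7% of its probes were called. SAM1 and MHT1 were called in all of these, CYS3, SAM3 and MUP3 were lost without hypoxia array B, and CYS3, MET30 and MUP3 were lost without hypoxia array A.

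**Figure D2:**
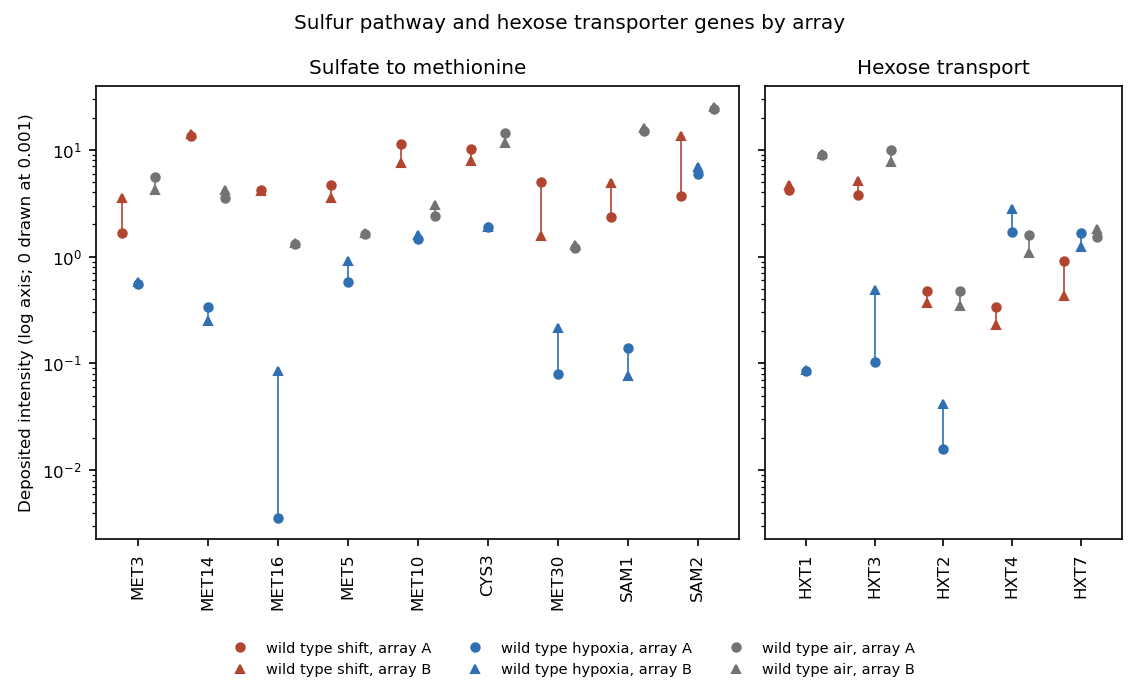
Deposited intensity on each wild type array (log axis) for genes of the sulfur pathway and for hexose transporters. Shift is red, hypoxia blue and air grey, with circles for array A and triangles for array B. The shift and air values of HXT1 lie above 4 and its hypoxia values lie under 0.09, while the shift values of HXT4, at 0.337 and 0.227, lie below both hypoxia and air.

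Amino acid synthesis followed the same direction. Of 57 tested probes, 12 rose and none fell in the limma fit (none fell at an unadjusted p under 0.05 either), 21.1% against the background of 7.83%, with a median of 0.53. Branched-chain synthesis was the best represented. ILV5, for the reductoisomerase, read 2.65 and 14 in the shift against 0.130 and 0.271 in hypoxia (log2 difference 5.28 ± 0.88, adjusted p = 0.00683), and LEU4, for an isopropylmalate synthase of leucine synthesis, read 3.03 and 3.10 against 0.0930 and 0.236. ILV2 and ILV6, for the subunits of acetolactate synthase, rose too, with differences of 4.88 and 3.35. The others were ARG7 and ARG4 (arginine), ARO4 and TRP3 (aromatic amino acids), HIS1 and HIS4 (histidine), LYS9 (lysine) and SER33 (serine). ARO4 is an example with tight arrays, at 1.75 and 1.43 in the shift against 0.119 and 0.0812 in hypoxia. The 12 probes come from several separate branches, and at each, as at every called probe, the groups did not overlap. Without hypoxia array A 5 of 58 passed, 8.6% against 3.06% of all probes, and without hypoxia array B 8 of 57 passed, 14% against 3.0% of all probes. LEU4, ARO4 and HIS1 held in every alternative. ARG7 held in every alternative that retested it, but with dim probes left out it was not retested. LYS9 was the least stable, lost in 11 of 15. The probe for the fused gene ARG5,6 was not analysed here.

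Genes of nitrogen catabolism, in a list that also holds regulators such as GLN3 and DAL81, had a median of 0.72 over 23 tested probes. Of these, 18 lay above 0, against 2535 of all 4893 tested probes. None fell, and 3 rose, which is 13.0% against 7.83% of all probes. These were DAL81, for an activator of nitrogen catabolic genes, CAN1, for the arginine permease, and DUR3, for a urea transporter. DAL81 read 2.26 and 1.69 in the shift against 0.0421 and 0.104 in hypoxia. CAN1 read 0.524 and 0.562 against 0.0156 and 0.0463, and DUR3 read 0.566 and 0.707 against 0.0411 and 0.151. In all of these a hypoxia value was dim. With dim probes left out none of the 20 remaining probes passed. GAP1, for the general amino acid permease, was listed at 0 on hypoxia array A and was not tested.

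Hexose transporter genes went both ways. Of 19 probes, 11 were tested, 3 rose and 1 fell, which is 36.4% against 7.83% of all probes, with a median of 0.38. HXT1 had a log2 difference of 5.76 ± 0.44 (adjusted p = 0.000908), and its values in air were 8.89 and 9.11. HXT3, another low-affinity transporter, read 3.74 and 5.06 in the shift against 0.103 and 0.483 in hypoxia (4.34 ± 0.63, adjusted p = 0.00330). HXT2, a high-affinity transporter induced at low glucose, also rose, at 0.475 and 0.370 against 0.0159 and 0.0416, with dim hypoxia values. HXT4, whose product has a higher affinity for glucose, fell to 0.337 and 0.227 in the shift, against 1.68 and 2.77 in hypoxia, a 7.18-fold difference (log2 difference -2.84 ± 0.53, adjusted p = 0.0145). HXT7, also of high affinity, read 0.908 and 0.426 against 1.67 and 1.23 and did not pass (-0.96, adjusted p = 0.425). HXT1 passed in every alternative, HXT3 was lost only with the 4 arrays alone, and HXT2 and HXT4 were not called without either hypoxia array. The median of the family was -0.34 without shift array A and -0.33 without hypoxia array B. Family members share much of their sequence, and signal from one can reach the probe of another. Glucose left in the medium was not measured in the values used here.

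In glycolysis only PFK2 and TDH2 were called. PFK2, for a subunit of phosphofructokinase, read 0.981 and 1.12 in the shift against 0.108 and 0.0697 in hypoxia (log2 difference 3.89, adjusted p = 0.00843). Its partner PFK1 read 1.01 and 0.755 against 1.79 and 2.29 (-1.04, adjusted p = 0.288). The upper pathway had a median of 1.02 over 8 probes and the lower pathway -0.37 over 10. PGK1 (13.7 and 12.3 in the shift, 12.7 and 11.7 in hypoxia), ENO1 (32.5 and 23.1 in the shift, 43.7 and 37.1 in hypoxia) and TPI1 (9.59 and 10.7 in the shift, 17.4 and 19.3 in hypoxia) did not pass. TDH2 read 0.0865 and 0.0347 in the shift against 1.04 and 1.67 in hypoxia (-5.07, adjusted p = 0.0192), but its values in air were 151 and 187. TDH3 read 0.0147 and 0.0978 in the shift, 0.116 and 0.170 in hypoxia, and 157 and 172 in air, and FBA1 read 0.00707 and 0.0274, 0.107 and 0.250, and 58.0 and 93.9. These probes of abundant enzymes read far lower in both low-oxygen groups than in air. Each had a dim shift value and no dim hypoxia value, and no reading of PGK1 or ENO1 was dim. The cause was not tested. TDH1, TDH2 and TDH3 are near-identical copies. No source used here gives the probe sequences, so how far signal from one copy reaches the probe of another is not known. TDH2 was not called without either hypoxia array or without shift array B, and PFK2 was not called without hypoxia array B.

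In fermentation, ADH2 and ADH3 rose and no gene of 11 tested fell (18.2% called against 7.83% of all probes, median 0.65). ADH3, for the mitochondrial alcohol dehydrogenase, read 2.12 and 2.41 in the shift against 0.0178 and 0.0832 in hypoxia, and ADH2, for the enzyme that oxidises ethanol and is repressed by glucose, read 3.43 and 1.54 against 0.114 and 0.10. ADH1, for the main fermentative enzyme, read 3.53 and 19.8 against 21.2 and 13.5 and its groups overlapped. PDC1, for the main pyruvate decarboxylase, read 1.26 and 1.92 against 3.54 and 4.17 (log2 difference -1.27, adjusted p = 0.227). The ADH genes also resemble each other in sequence. ADH2 was lost without either hypoxia array and without shift array A. ADH3 was not lost in any alternative that retested it, but with dim probes left out it was not retested. None of the 11 genes of glycerol synthesis and redox balance passed in the limma fit (0 had an unadjusted p under 0.05), with a median of 0.10. GPD1, for the first enzyme of glycerol synthesis, read 9.61 and 5.19 in the shift and 6.06 and 6.85 in hypoxia.

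Respiratory genes were mixed. Of 28 tested probes for the respiratory chain and ATP synthase, 1 rose and 3 fell. That is 14.3% against 7.83% of all probes, with a median of -0.36. ATP5 and ATP1, for subunits of ATP synthase, fell, ATP5 reading 0.153 and 0.266 in the shift against 3.74 and 3.88 in hypoxia (log2 difference -4.09 ± 0.49, adjusted p = 0.00221). ATP1 read 0.263 and 0.159 against 3.02 and 2.76. QCR10, for a subunit of the cytochrome bc1 complex, read 0.177 and 0.434 against 4.45 and 3.64. All of these had air values under 1, like the shift. ATP15, for another ATP synthase subunit, rose, at 1.30 and 2.44 in the shift against 0.0595 and 0.00943 (dim) in hypoxia. The remaining 24 probes did not pass, and subunits of a complex therefore did not move as a block. In the citrate and glyoxylate cycles CIT2, for the peroxisomal citrate synthase, rose, at 1.99 and 2.27 in the shift against 0.0592 and 0.0983 in hypoxia (4.96 ± 0.63, adjusted p = 0.00201). KGD2, which also rose, was the only other of 24 to pass, so 8.33% were called against 7.83% of all probes. The list, which includes gluconeogenesis, had a median of -0.43. Of its 24 tested probes 18 lay below 0, against 2358 of all 4893 tested probes. ATP1, QCR10 and KGD2 were lost without either hypoxia array, whereas ATP5 and CIT2 passed in every alternative.

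The anaerobic wall genes showed no common change. Of 7 tested DAN and TIR probes 1 rose (14.3%), with a median of 0.07. Of 20 PAU probes 1 fell (5.0%), against 7.83% called over all probes. The PAU median was -0.75, with 15 of 20 below 0, against 2358 of all 4893 tested probes. DAN1, for the delayed-anaerobic mannoprotein, was listed at 0 on shift array A and read 2.47 on shift array B, against 1.37 and 3.52 in hypoxia and 0.0674 and 0.0886 in air, so it was not tested. TIR1 rose, at 0.162 and 0.618 against 0.0227 (dim) and 0.0693 (log2 difference 3.10, adjusted p = 0.0296), but its air values were 0.791 and 0.886. TIR2 read 0.0519 and 0.772 in the shift against 1.70 and 3.86 in hypoxia and did not pass (-3.21, adjusted p = 0.153), and the DAN and TIR probes differed between the shift arrays by a median of 1.13 on the log2 scale. PAU7 fell to 0.202 and 0.235 in the shift, against 1.10 and 1.14 in hypoxia (-2.10 ± 0.48, adjusted p = 0.0280), with 0.0501 and 0.0467 in air. PAU5 read 0.833 and 0.622 in the shift against 1.72 and 1.89 in hypoxia (-1.13, adjusted p = 0.287), and 0.308 and 0.414 in air. PAU genes are close copies of each other, so their 20 probes may not be separate measurements. Neither TIR1 nor PAU7 was called on the deposited scale or without either hypoxia array. From the 6 wild type arrays alone PAU7 was not called (adjusted p = 0.103), and the 1 PAU probe that passed was higher: PAU21, at 0.456 and 0.421 in the shift against 0.0665 and 0.0361 in hypoxia (log2 difference 3.64, adjusted p = 0.0351). PAU8, PAU9, PAU10 and PAU22 were not analysed here.

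Other wall genes were called in both directions. Of 32 tested probes for structural wall proteins and glucan enzymes, 8 rose and 1 fell. That is 28.1% against 7.83% of all probes, while the median was 0.10. CWP2, a main mannoprotein of aerobic walls, read 27.2 and 30.8 in the shift against 1.89 and 2.58 in hypoxia (log2 difference 3.63 ± 0.49, adjusted p = 0.00259), and 31.1 and 32.9 in air. SED1, for a glycoprotein of stressed and resting cells, read 4.29 and 3.11 against 0.204 and 0.165 (4.44, adjusted p = 0.00191). TIP1, for a mannoprotein induced by cold, read 8.26 and 8.25 against 0.0799 and 0.323 (5.65, adjusted p = 0.00167). For TIP1 the hypoxia arrays labelled ixr1 null read 3.38 and 2.97, far above those of the wild type. PIR1, PIR3 and HSP150, of the wall proteins with internal repeats, rose together with BGL2, for a glucan-modifying enzyme, and UTH1. PIR1 read 2.75 and 1.30 in the shift against 0.0712 and 0.198 in hypoxia. CCW12, for an abundant mannoprotein, fell (-3.34, adjusted p = 0.00729), with 0.00663 and 0.0739 in the shift and 0.496 and 0.639 in hypoxia, while air read 70.9 and 77.8. CWP2, SED1 and TIP1 passed in every alternative, PIR1 and UTH1 were lost without hypoxia array A, CCW12 was lost without either hypoxia array, and with the 4 arrays alone 3 probes of the list rose and none fell.

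**Figure D3:**
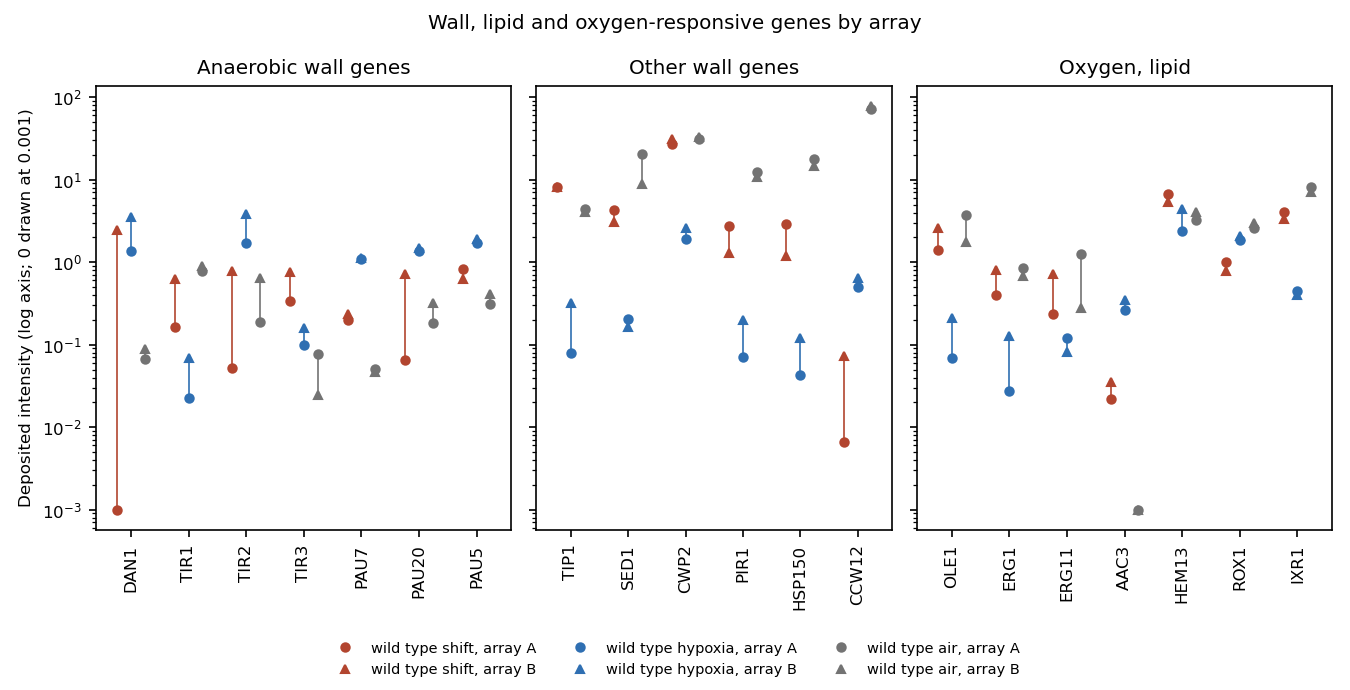
Deposited intensity on each wild type array (log axis, with 0 drawn at 0.001) for anaerobic wall genes, other wall genes, and genes of lipid synthesis and oxygen control. Shift is red, hypoxia blue and air grey, with circles for array A and triangles for array B. DAN1 is at 0 on shift array A, and CWP2, SED1, TIP1, PIR1 and HSP150 are lowest in hypoxia.

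Among 16 tested genes of the hypoxic list, many of them known Rox1 targets, only OLE1 passed (6.25%, median 0.15), and it did so in every alternative but the 4 arrays alone. OLE1, for the fatty acid desaturase, read 1.41 and 2.59 in the shift against 0.0697 and 0.212 in hypoxia, where the medium held Tween 80 (log2 difference 4.15 ± 0.60, adjusted p = 0.00340), and 3.72 and 1.74 in air. AAC3, for the anaerobic ADP/ATP carrier, read 0.0217 and 0.0353 in the shift against 0.267 and 0.347 in hypoxia, and was listed at 0 in air. It did not pass (-3.27, adjusted p = 0.0858), but was called lower on the deposited scale (adjusted p = 0.0188), with median centring (0.0318), with quantile normalization of positive values (0.0146), in the fit with trend and robust variances (0.0403) and without shift array A (0.0118). Both of its shift values are dim. HEM14, for protoporphyrinogen oxidase, read 0.00177 and 0.0627 in the shift, both dim, against 0.174 and 0.30 in hypoxia (-2.32, adjusted p = 0.0549), and was called lower without either shift array labelled ixr1 null (adjusted p = 0.0472). ANB1, for the anaerobic form of translation factor eIF5A, read 1.97 and 3.72 against 2.22 and 3.98, and HEM13, for the oxygen-using coproporphyrinogen oxidase, read 6.63 and 5.40 against 2.42 and 4.44 (0.70, adjusted p = 0.518). Whether the ANB1 probe separates it from its near-identical aerobic copy is not known. Of AAC3, ANB1 and HEM13, only AAC3 had hypoxia and air values that did not overlap.

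In sterol synthesis, 2 of 22 tested genes rose, ERG1 and ERG4 (9.09% called against 7.83% of all probes), and the median was 0.52. Each of them rests on a dim hypoxia value. Neither was called without hypoxia array A. ERG1, for squalene epoxidase, the first step that uses oxygen, read 0.396 and 0.799 in the shift against 0.0273 (dim) and 0.128 in hypoxia (log2 difference 3.30, adjusted p = 0.0156). ERG4, for the last step to ergosterol, read 0.270 and 0.308 against 0.0671 and 0.0388 (dim). ERG11, for the lanosterol demethylase, read 0.237 and 0.728 in the shift against 0.119 and 0.0815 in hypoxia and did not pass. In fatty acid synthesis, FAS2 rose beside OLE1 among 13 tested genes (15.4% called against 7.83% of all probes). FAS2 read 0.444 and 1.6 in the shift against 0.0130 and 0.0600 in hypoxia, both hypoxia values being dim. FAS1, for the other subunit of the synthase, read 3.12 and 2.49 against 2.83 and 4.26. Of 9 sterol uptake genes 2 had values on all 4 arrays, and neither passed. None of 8 heme synthesis genes, HEM14 included, passed in the limma fit (2 had an unadjusted p under 0.05), with a median of -0.24. UPC2, for the sterol sensor, was not analysed here.

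Among 13 tested regulators of oxygen and heme responses, IXR1 and SKN7 rose (15.4% called against 7.83% of all probes). IXR1 read 4.0 and 3.34 in the shift against 0.441 and 0.399 in hypoxia (log2 difference 3.25 ± 0.48, adjusted p = 0.00357), and 8.11 and 7.03 in air. On the arrays labelled ixr1 null the same probe also read higher in the shift, at 3.60 and 3.01 against 0.608 and 1.13. Its rise therefore cannot be assigned to the IXR1 transcript. ROX1, for the heme-dependent repressor of hypoxic genes, read 1.00 and 0.790 in the shift against 1.86 and 2.06 in hypoxia and did not pass (-0.97, adjusted p = 0.233). Its groups did not overlap. SKN7, for a regulator of oxidative stress and wall genes, read 0.275 and 0.250 against 0.0651 and 0.00935. SKN7 was not called on the deposited scale or without either shift array.

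Cytosolic ribosomal protein genes lay slightly to one side. The median log2 difference of 115 tested probes was 0.70, with 100 of 115 above 0, against 2535 of all 4893 tested probes. Of the 115, 7 rose and 2 fell, 7.83% of the list against 7.83% of all probes. RPL25 read 20.3 and 13.4 in the shift against 0.358 and 0.164 in hypoxia (log2 difference 6.30 ± 1.00, adjusted p = 0.00530), and 1.68 and 3.12 in air. RPP0, for the stalk protein, read 16.1 and 8.56 against 0.0278 and 0.0402, both hypoxia values being dim. RPL4A fell to 0.221 and 0.285 in the shift, against 2.13 and 1.98 in hypoxia. It was lost without either hypoxia array, and RPL25 was lost without hypoxia array B. Many of these genes have a near-identical second copy, whose signal may reach the same probe. Ribosome biogenesis genes had a median of -0.16, and 1 of 61 rose and 3 fell (6.56% called). Among them IPI1, of large subunit assembly, read 4.35 and 4.48 in the shift against 36.6 and 50.8 in hypoxia (-3.30, adjusted p = 0.00259), and ENP1, of small subunit assembly, read 0.104 and 0.0901 against 2.21 and 1.94. Of 65 mitochondrial ribosomal protein genes 2 rose and 3 fell (7.69% called), with a median of -0.24. MRPS5 read 0.253 and 0.536 against 16.1 and 17.6 (-5.38 ± 0.50, adjusted p = 0.00118), and MRPL8 read 0.586 and 0.359 against 9.07 and 5.6.

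**Figure D4:**
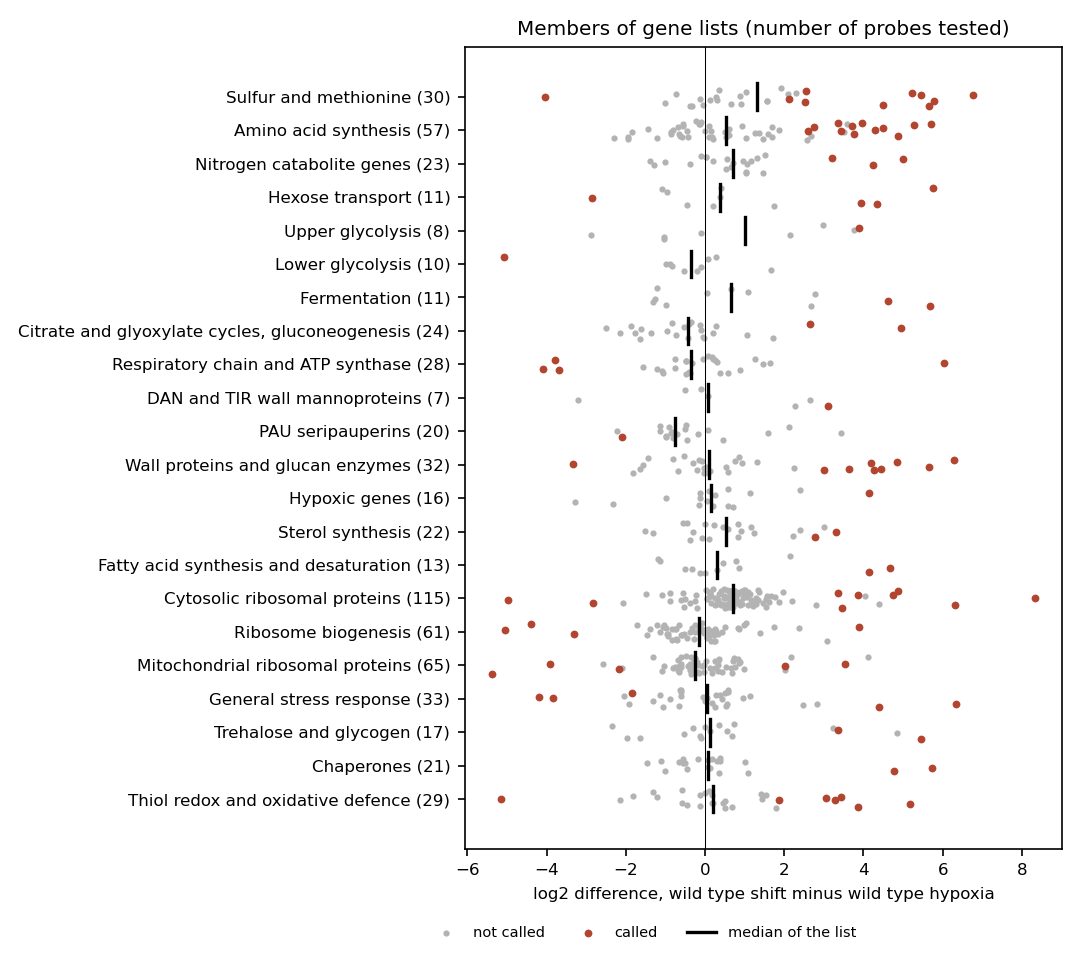
log2 difference, shift minus hypoxia, of each tested member (point) of 22 gene lists, with the number of tested probes beside each name. Called probes are red, and the bar is the median of the list, which is 1.31 for sulfur and methionine genes, 0.70 for cytosolic ribosomal proteins and -0.75 for PAU genes.

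Stress genes separated the shift arrays from each other more than the groups. The 33 general stress genes had a median of 0.06 between the groups, with 2 higher and 3 lower (15.2% called against 7.83% of all probes). Between shift arrays A and B their median difference was 2.13 on the log2 scale, with 29 of 33 higher on array A, against 0.02 between hypoxia arrays A and B. The same gap was 2.42 for trehalose and glycogen genes and 1.14 for chaperones. HSP12, for a membrane-protecting stress protein, read 217 and 17.4 in the shift against 9.22 and 7.77 in hypoxia (2.46, adjusted p = 0.117). It was the brightest probe of shift array A.

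GRE1 and SIP18, for desiccation-related hydrophilins, rose. GRE1 read 45.6 and 1.31 in the shift against 0.122 and 0.0798 in hypoxia (log2 difference 6.34 ± 1.51, adjusted p = 0.0333), and SIP18 read 10.2 and 2.30 against 0.236 and 0.244 (4.40, adjusted p = 0.0238). RTN2, for a membrane-shaping protein, fell, at 6.67 and 1.20 in the shift against 43.9 and 39.8 in hypoxia, and HSP104, for the disaggregase, read 3.04 and 2.03 against 9.18 and 8.03 (-1.83, adjusted p = 0.0377). TPS2, of trehalose synthesis, read 8.16 and 1.07 against 0.0473 (dim) and 0.103. Of 21 chaperone genes SSA2 and SSB2 rose (9.52% called against 7.83% of all probes), SSB2 reading 3.98 and 5.37 against 0.160 and 0.208. Stress genes that passed did so in both directions, and array A carried the larger shift value in all of these but SSB2. GRE1, SIP18, RTN2 and HSP104 were lost without either hypoxia array, GRE1 and SIP18 also without shift array A, and TPS2 without hypoxia array A.

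Thiol redox and oxidative defence held 6 higher and 1 lower of 29 tested genes (24.1% against 7.83% of all probes), with a median of 0.21. TRX2, for a cytosolic thioredoxin, read 6.4 and 2.79 in the shift against 0.103 and 0.144 in hypoxia (log2 difference 5.18 ± 0.67, adjusted p = 0.00208). TRR1, for thioredoxin reductase, read 0.686 and 0.851 against 0.169 and 0.0776, and its mitochondrial counterpart TRR2 read 0.861 and 0.766 against 0.0267 (dim) and 0.126. GRX1, for a glutaredoxin, and HYR1, for a peroxide-sensing peroxidase, rose as well, by 3.43 and 1.87. GPX2, for a related peroxidase, went the other way, at 0.297 and 0.291 in the shift against 10.5 and 11.3 in hypoxia (-5.15 ± 0.47, adjusted p = 0.00118), and 0.454 and 0.661 in air. TSA2, for a stress-induced peroxiredoxin, read 9.48 and 4.30 against 2.91 and 1.66 and did not pass (1.43, adjusted p = 0.185). TRX2 and GPX2 passed in every alternative, whereas HYR1, GRX1, TRR1 and SKN7 were not called without hypoxia array B, which left 2 higher and 1 lower.

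Smaller groups held few calls. Over all probes 7.83% were called. The share was 4.0% for iron uptake, 9.52% for phosphate and zinc, 9.68% for proteasome and 15.8% for histone and S phase genes. FTR1, for the high-affinity iron permease, was the only one of 25 iron uptake genes to pass, at 1.48 and 0.566 in the shift against 0.164 and 0.0821 in hypoxia. ZRT2, for a zinc transporter, and GIT1, for a glycerophosphoinositol permease, fell among 21 phosphate and zinc genes, ZRT2 reading 0.341 and 0.518 against 2.73 and 3.41. Of 31 proteasome genes 3 rose, RPN8, PRE2 and RPT1, with a median of -0.21. RNR4, for a subunit of ribonucleotide reductase, and CLB5, for an S phase cyclin, rose among 19 histone and S phase genes, while RFA1, for the single-strand DNA binding protein, fell to 0.00906 and 0.0317 in the shift, against 6.98 and 8.01 in hypoxia. ZRT2, GIT1 and RPN8 were lost without either hypoxia array, CLB5 and FTR1 without hypoxia array B, and PRE2 and RPT1 without hypoxia array A. In the limma fit none of 18 mitotic and G1 cyclin genes passed (3 had an unadjusted p under 0.05), and none of 21 peroxisomal genes did (3 had such a p, and the fit with trend and robust variances called 1).

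Among cell identity markers, 3 of 6 tested probes of the mating type a list were called, 50.0% against 7.83% of all probes, with a median log2 difference of 1.27. The 4 alpha-specific probes, of which STE3 was 0 on shift array A, summed to 1.15 and 1.67 in the shift and to 1.39 and 1.46 in hypoxia, and none of 3 tested passed. The 11 sporulation probes summed to 3.10 and 7.56 in the shift and to 4.22 and 4.66 in hypoxia. Among them SMK1, a kinase gene of spore formation, rose (0.75 and 5.13 against 0.133 and 0.121, adjusted p = 0.0346). SMK1 was lost without either hypoxia array. AGA2 and BAR1 were the genes of the mating type a list that rose and ASG7 the one that fell. The 8 probes of that list, AGA1 included, summed to 3.45 and 21.9 in the shift and to 9.04 and 6.6 in hypoxia. MFA2, for the a-factor pheromone, read 1.11 and 14.4 in the shift, which is most of the gap between the shift sums. AGA2 and ASG7 were lost without either hypoxia array.

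The direction of the calls varied along the chromosomes, as read from the systematic names, a pattern noticed after the values were seen. On chromosomes I to IV 76 of 1189 tested probes were lower in the shift, which is 6.39%. On chromosomes V to XIII 72 of 2591 were lower, or 2.78%, and on chromosomes XIV to XVI 8 of 1113, or 0.72%. Called higher probes made up 3.78%, 5.21% and 4.22% of the same blocks. Chromosome II alone held 29 lower probes of 353, and chromosome XVI held 1 of 377. Probes over 8-fold lower made up 5.30%, 2.55% and 1.62% of the same 3 blocks in the wild type, and 5.42%, 1.36% and 0.66% on the arrays labelled ixr1 null, with shift array B against the hypoxia arrays. Probes over 8-fold higher ran in the opposite order, at 2.61%, 4.44% and 7.82% in the wild type and 3.68%, 5.36% and 10.08% on those arrays labelled ixr1 null. No test was run on this pattern, and no source used here gives the position of probes on the arrays.

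**Figure D5:**
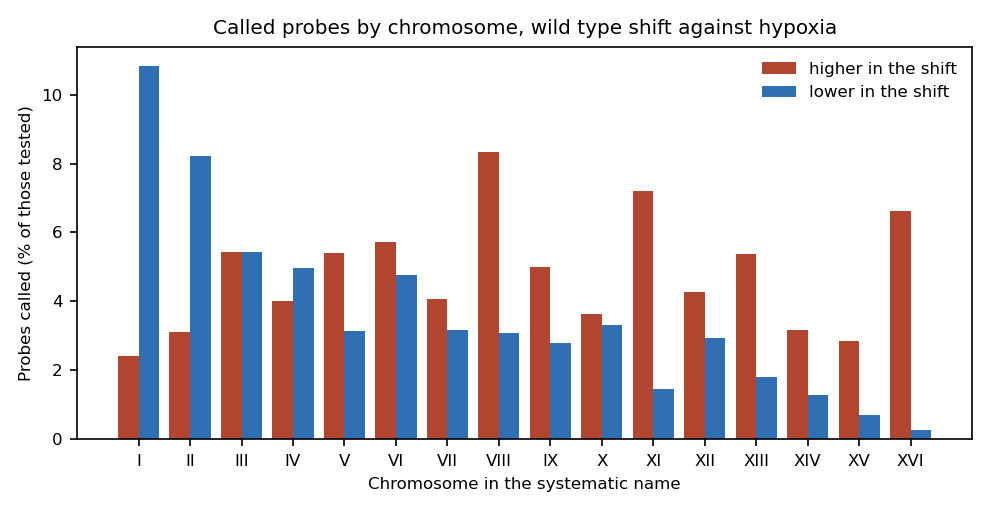
Percentage of tested probes called on each chromosome, for probes higher (red) and lower (blue) in the shift than in hypoxia. The share of lower probes is 10.84% on chromosome I and 0.27% on chromosome XVI.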

How the data were processed

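The authors deposited 1 intensity value for each of 5974 open reading frames and each of 12 arrays. Per the labels' protocols, cDNA copied from total RNA with an oligo-dT primer carried 32P. No source used here gives the scanner, the background subtraction, the scaling or the probe sequences. Gene symbols came from the NCBI RefSeq table of assembly R64, which matched 5571 probes, and 403 kept their systematic names.

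The 12 arrays were quantile normalized with zeros included, zeros were set to missing, and values were log2 transformed. Group means were fitted over all 12 arrays with limma 3.58.1 (lmFit and eBayes) under R 4.3.3, with Benjamini-Hochberg adjustment over the probes with a value on all 4 arrays compared and a threshold of 0.05. The fit was tested on simulated data. Normalized values give the log2 differences, SE and folds, while the readings of single arrays are the deposited intensities. With 2 arrays a group, the smallest two-sided p of an exact permutation test is 0.333.

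The members, gene lists and naming rule were chosen with earlier results of these data known. The rule names the 12 highest and 12 lowest called probes whose 4 values do not overlap and lie above the tenth percentile and under 90% of the brightest value, the members of smallest p in each direction of each list described, the members needed to follow a pathway, 3 probes listed at 0 in 1 group for each direction, a set of oxygen and stress genes, and the 3 smallest p of the difference between genotypes.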

Additional observations from a re-analysis of the deposited data

How the results depend on the processing

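Arrays A and B carry a letter in each group, but the letters did not pair the wild type shift with the wild type hypoxia arrays (correlation of deviations 0.01), and with the letter as a block 366 probes were called. Against 383 called probes (227 higher, 156 lower), alternatives gave 105 with the 4 arrays alone (67 and 38), 216 with dim probes left out (105 and 111), 260 with the 6 wild type arrays (176 and 84) and 475 with zeros kept at log2(value + 0.05) (224 and 251). Leaving out 1 array gave between 148 and 508 called, between 100 and 246 higher and between 48 and 303 lower. The deposited scale gave 356, median centring 323, quantile normalization of positive values 340 and an eBayes fit with trend and robust variances 485. The difference between genotypes was called at 4 probes in that last fit and at 0 in the others. No called probe changed sign in any setting. The calls made in both fits numbered 318 on the deposited scale, where the median of all probes was -0.21, and 103 with the 4 arrays alone. Signs turned only at named genes that were not called: PGK1 was 0.09 on the deposited scale and 0.34 with median centring, GPD1 was 0.13 and 0.38 there, and ANB1 was 0.12 with median centring. With 1 array left out, TDH1 ran from -2.71 to 1.05, ANB1 from -0.63 to 0.32, ADH1 from -2.26 to 0.27, GPD1 from -0.47 to 0.33 and FAS1 from -0.70 to 0.03. The cause of these changes was not tested, except that leaving out arrays or probes lowers the number tested or the arrays behind each mean. A lone array left in a group is assumed to vary like the others. Dim readings limit the folds: 114 of the 227 higher probes rest on a dim hypoxia value.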

Other observations

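Lists for charging transfer RNA and for chromosome segregation were drawn up after the values were seen, and are given as values only. Their shares of called probes are therefore no evidence about either process. Of 17 tested cytosolic aminoacyl-tRNA synthetase genes, 3 rose and none fell in the limma fit (17.6% against 7.83% of all probes, median 0.15). DED81, for asparaginyl-tRNA synthetase, read 4.19 and 2.72 in the shift against 0.0788 and 0.158 in hypoxia (log2 difference 5.0 ± 0.45, adjusted p = 0.00107). ALA1, for alanyl-tRNA synthetase, read 1.04 and 1.05 against 0.0261 and 0.00612, and FRS2, for a subunit of phenylalanyl-tRNA synthetase, read 0.147 and 0.155 against 0.0409 and 0.00527, both with dim hypoxia values. THS1 was not analysed here.

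Of 21 tested kinetochore, cohesin and spindle checkpoint genes, 2 rose and 6 fell (38.1% against 7.83% of all probes), with a median of 0.46. The cohesin genes IRR1, SMC1 and SMC3 fell, IRR1 reading 0.247 and 0.248 in the shift against 6.55 and 7.08 in hypoxia, and 0.202 and 0.0214 in air (log2 difference -4.72, adjusted p = 0.0123). SMC3 read 0.101 and 0.0636 against 6.17 and 5.48. The checkpoint genes BUB1 and MAD3 fell as well, BUB1 at 0.224 and 0.275 against 2.42 and 3.95. DAD2, of the kinetochore ring complex, rose to 4.51 and 5.48 in the shift, against 0.0549 and 0.0337 (dim) in hypoxia (6.86 ± 0.51, adjusted p = 0.000908). IPL1, for the Aurora kinase, read 1.41 and 13.7 against 0.0491 and 0.0110, both dim. Both genes that rose had a dim hypoxia value, and most of the 21 tested genes did not pass.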
